A study of Mus musculus with 4 samples.

Results

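The genes described here encode the proteasome, the barrel-shaped protease that degrades ubiquitin-tagged proteins in the cytosol and nucleus. They were taken as every symbol of the count tables that begins with Psma, Psmb, Psmc, Psmd, Psme, Psmf or Psmg followed by a digit. The immunoproteasome genes Psmb8, Psmb9 and Psmb10 were left out. This gave 47 of the 23238 symbols, of which 16 encode the core particle, 17 the regulatory particle and 14 assembly factors, activators, an inhibitor and 1 gene that is no subunit. That gene, Psmc3ip, encodes a partner of Psmc3 that acts in meiotic recombination and is described apart.

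The libraries came from CD4+ T cells of C57BL/6j mice, 2 from PDK4 KO animals (KO) and 2 from wild-type animals (WT), and addressed how gene expression depends on Pdk4 in activated cells. Pdk4 encodes a mitochondrial kinase that holds back pyruvate dehydrogenase. In both genotypes naive CD4+ cells from spleen and lymph nodes were sorted magnetically and stimulated with CD3, CD28 and IL-2 for 48 hours, with no unstimulated group. The labels give neither the deleted part of Pdk4, nor whether the deletion was limited to T cells, nor the age of the mice, nor whether the 2 replicates came from separate animals. The p-values below therefore rest on a spread that may be no more than technical.

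Total counts per library were 9739624 and 9104413 in KO and 8837810 and 9575879 in WT. A detection floor of 3 counts equals 0.308 to 0.339 CPM (here counts scaled to the library total). Levels below are TMM-normalised CPM unless another scaling is named. Pdk4 had 0 and 2 counts in KO and 1 and 0 in WT, which is under that floor and checks nothing about the labels. All 8 CD4 T cell markers examined were detected, with Cd4 at 269 and 251 CPM in KO and 252 and 255 CPM in WT. Of these 8, Cd2 fell (log2 fold change, KO over WT, -0.41, adjusted p = 0.000107), Cd5 rose (0.29, adjusted p = 0.0341) and the other 6 did not pass the test described below. The sum of 10 B cell markers was 25.6 and 26.3 CPM in KO, against 121 and 126 CPM in WT, and 7 of the 8 tested fell. Of these, Cd22 was at 0 in both KO libraries, and Pax5 was at 0 in all 4 libraries. The sum of 8 CD8 T and NK cell markers was 253 and 239 CPM in KO, against 399 and 419 CPM in WT. Of its 7 tested genes only Gzma fell, at 76.2 and 51.3 CPM in KO against 219.6 and 219.2 CPM in WT. Cd8a (0.41 and 0.54 CPM in KO, 2.62 and 2.96 CPM in WT) lay below WT without overlap and did not pass (adjusted p = 0.119). The same held for Klrb1c (1.13 and 0.76 CPM in KO, 3.53 and 4.86 CPM in WT, adjusted p = 0.0887), and the other 4 overlapped. Without Gzma the sum was 176.8 and 187.5 CPM in KO and 179.4 and 199.3 CPM in WT, with overlap. Most of that sum was Nkg7, at 119 and 125 CPM in KO and 111 and 134 CPM in WT. The B cell markers, Gzma, Cd2 and Cd5 moved with genotype, and their part in the values below was not tested. In bulk RNA, fewer cells of a type and less RNA per cell cannot be told apart.

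The core particle is a stack of rings. The outer rings are made of alpha subunits, which gate the entrance, and the inner rings of beta subunits, which carry the proteolytic sites. The regulatory particle caps the core, binds and removes ubiquitin chains, and unfolds the substrate with a ring of ATPases. Subunits of each ring are present in equal copy number in the assembled particle. T cells that leave quiescence make and degrade large amounts of protein, and when proteasome capacity falls short the transcription factor NRF1, encoded by Nfe2l1, induces the subunit genes together through antioxidant response elements in their promoters.

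No proteasome gene passed the test between KO and WT cells. By edgeR's quasi-likelihood F test, with p-values adjusted after Benjamini and Hochberg over 11464 genes, 0 of 46 tested members rose and 0 fell (smallest adjusted p = 0.221). Psma8 had no counts and was not tested. Over all tested genes 2.66% were called, 1.45% as rises and 1.21% as falls, so a count of 0 among 46 is near the background. At an unadjusted p under 0.05 there were 4 members, or 8.7%, against 1545 of all 11464 genes, or 13.5%, and DESeq2 and limma-voom also called 0 members. The median log2 fold change (KO over WT throughout) of the 46 was -0.02, and that of all tested genes was 0.00.

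The depth of these genes bounds how large a missed difference could be. Apart from Psmb11 and Psma8, the 45 members had between 171 and 6099 counts in every library. The 95% interval of the fold change lay within 1.5-fold in both directions for 45 of 46 members, Psmb11 being the exception, and within 1.25-fold for 27. The same held within 1.5-fold for 5430 of the 8078 tested genes whose mean reached 10 CPM. The intervals rest on 2 libraries a genotype and on a spread that edgeR shares across genes.

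**Figure D1:**
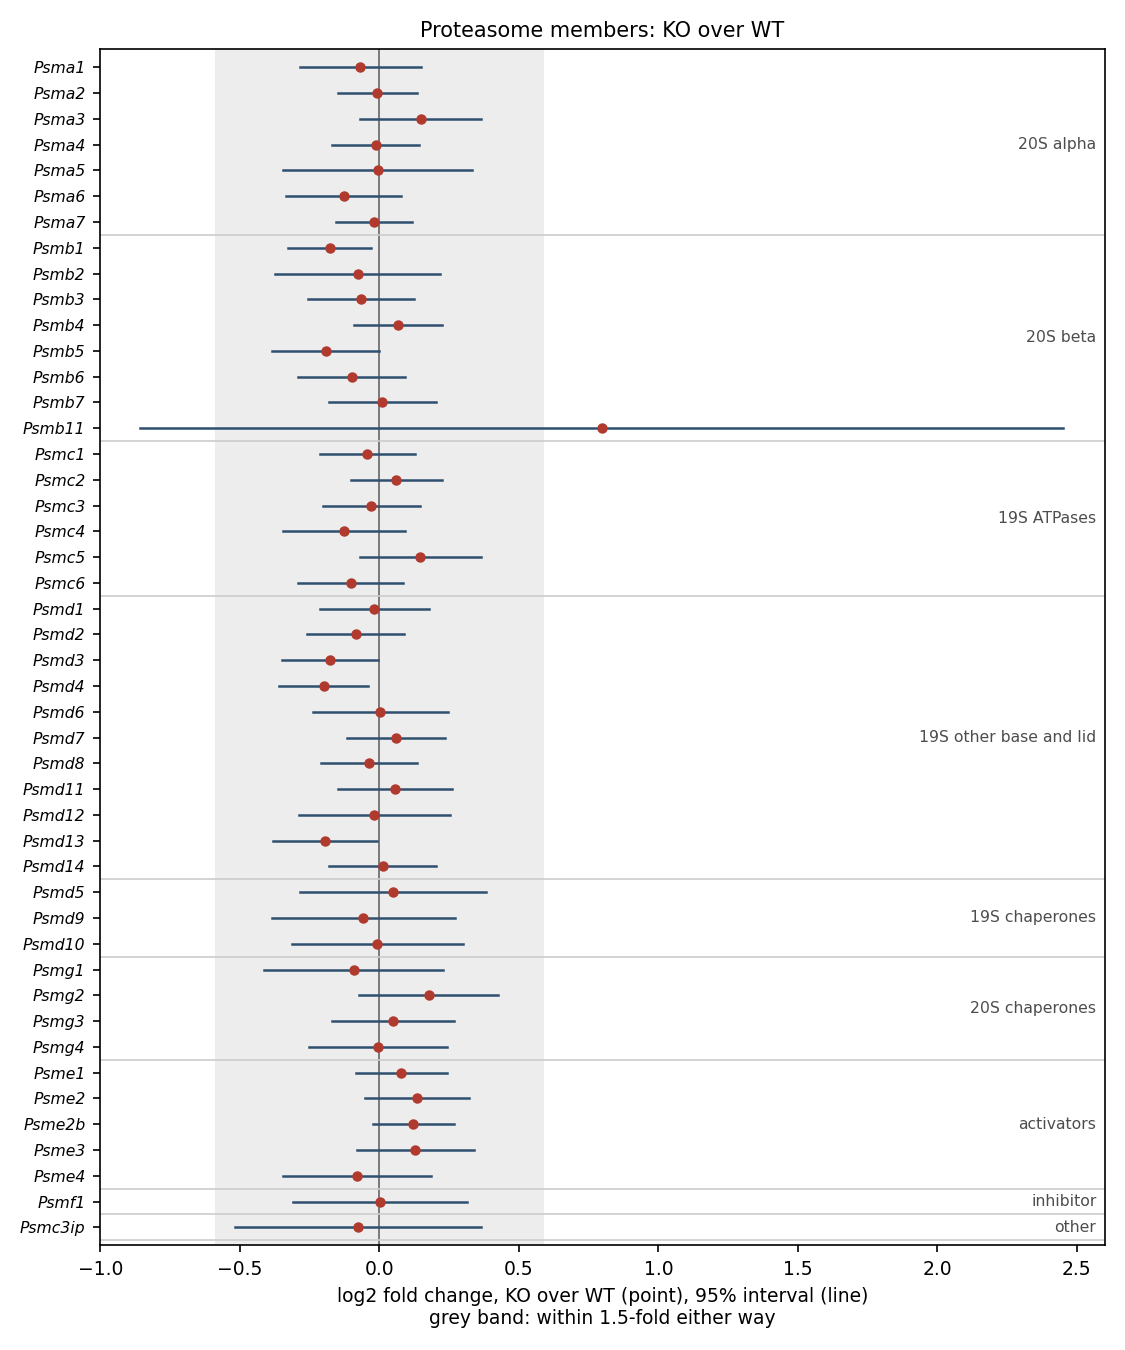
Log2 fold change, KO over WT, of the 46 tested members by role, with 95% intervals from edgeR's quasi-likelihood fit as lines and the range within 1.5-fold shaded. Every interval except that of Psmb11, which spans -0.86 to 2.45, lies inside the shaded range.

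The members are spread over the genome, with 10 of 47 on chromosome 11 and 6 each on chromosomes 2 and 14. Since Nfe2l1 acts through promoters, the window of 250 bases before to 50 after the RefSeq start (GRCm38.p6) was searched on both strands. It was at hand for 39 members in 42 windows. The core of the antioxidant response element, TGACNNNGC, lay in 6 of 42 windows (14.3%), against 12.4% of 32851 windows of all genes. The looser form TGANNNNGC, which includes it, lay in 57.1% against 41.3%. The NF-Y box CCAAT lay in 33.3% against 37.4%, and the longer form GATTGGCT, which holds its reverse complement, in 4.76% against 3.84%. The ETS site GGAAGT lay in 22 of 42 windows (52.4%), against 23.8% of all. The motifs are letter matches and not measured sites.

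Shown are the 60 bases before the start of the 3 members with TGACNNNGC wholly within them. The match of Psme4 spans the start and those of Psmd12 and Psmc6 lie farther upstream, and these are not shown. Each is 5′ to 3′ in the direction of the gene, with the match in capitals.
Psmb5 (chr14:54617996-54618055, minus strand): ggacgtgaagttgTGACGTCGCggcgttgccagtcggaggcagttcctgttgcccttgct
Psmb6 (chr11:70525297-70525356, plus strand): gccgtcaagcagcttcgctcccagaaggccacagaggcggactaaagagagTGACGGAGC
Psmd9 (chr5:123228130-123228189, plus strand): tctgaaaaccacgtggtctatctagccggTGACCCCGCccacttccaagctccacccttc
The match begins 47 bases before the start in Psmb5, 9 in Psmb6 and 31 in Psmd9. The log2 fold changes of these 3 genes were -0.19, -0.10 and -0.06 and did not pass.

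In the alpha ring of the core particle, 7 genes were expressed and had levels that differed widely from each other. Of these genes 0 rose and 0 fell between genotypes, with a median log2 fold change of -0.01 and single values between -0.13 and 0.15. QuantSeq reads the 3′ end of each transcript, so CPM values were compared between genes without dividing by length. Psma7 was the most abundant alpha transcript, at 624 and 611 CPM in KO and 627 and 625 CPM in WT. Psma5 was the least abundant, at 32.0 and 41.3 CPM in KO and 37.5 and 35.9 CPM in WT. The 3′ end of Psma5 matches the pseudogene Gm12989 at 99.4% over 338 bases, so that its level is uncertain. The mean of Psma7 over all libraries was thus 17.0 times that of Psma5, although both proteins have equal copy number in the ring.

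By mean level the order was Psma7, Psma2, Psma4, Psma6, Psma1, Psma3 and Psma5, and the ranges of neighbours over the 4 libraries did not overlap, except those of Psma1 and Psma3. These 2 were at 105 and 101 CPM on average and could not be ordered. Psma3 had the highest fold change of the ring, with 108 and 104 CPM in KO and 94.0 and 97.8 CPM in WT. The KO libraries lay above both WT libraries, but the log2 fold change of 0.15 (SE 0.107, 95% interval -0.07 to 0.37) did not pass (adjusted p = 0.605). Psma6 had the lowest, with 139.5 and 149.8 CPM in KO and 141 and 175 CPM in WT (-0.13, SE 0.101, adjusted p = 0.652). There the genotypes overlapped, and WT replicate 2 stood above the other 3 libraries. Without it the log2 fold change of Psma6 was 0.04.

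Psma8, which replaces Psma7 in the proteasome of the testis, had 0 counts in all 4 libraries. A count of 0 allows up to 3 counts a library, or 0.308 to 0.339 CPM.

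The beta genes of the core particle include the catalytic subunits Psmb5 (chymotrypsin-like activity), Psmb6 (caspase-like) and Psmb7 (trypsin-like). Of 8 tested, 0 rose and 0 fell, with a median log2 fold change of -0.07. Psmb5 (chromosome 14, 54614119 to 54618022, minus strand, GRCm38) had 138 and 151 CPM in KO, against 159.4 and 169.5 CPM in WT. Psmb6 (chromosome 11, 70525367 to 70527858, plus strand) had 144 and 145 CPM in KO, against 149 and 161 CPM in WT. Psmb7 (chromosome 2, 38588036 to 38644087, minus strand) had 149 and 161 CPM in KO, against 148 and 159 CPM in WT. Both KO libraries were below both WT libraries for Psmb5 and Psmb6, while those of Psmb7 overlapped.

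None of these differences passed. The log2 fold change was -0.19 for Psmb5 (SE 0.0941, 95% interval -0.38 to 0.00, adjusted p = 0.373), the lowest of the core particle, and -0.10 for Psmb6 (adjusted p = 0.72). For Psmb7 it was 0.01 (adjusted p = 0.98). The means of the catalytic genes over all libraries were 154, 150 and 154 CPM, and so nearly equal. The 3′ end of Psmb5 matches the pseudogene Gm3375 at 99.1% over 427 bases, so its count may have lost or gained reads. The last 500 bases of Psmb7 lie wholly within exons of Nek6 on the opposite strand. As the use of strand in counting is not stated, reads of the pair may have been exchanged. Nek6 was at 7.57 and 7.07 CPM in KO, against 16.9 and 12.3 CPM in WT, much below Psmb7.

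Psmb1, a structural beta subunit (chromosome 17, 15475021 to 15499751, minus strand), was the most abundant of the ring. It had 381.3 and 391.5 CPM in KO, against 433.5 and 440.9 CPM in WT. KO lay below WT without overlap, and the difference of -0.18 (log2, SE 0.0724) did not pass (adjusted p = 0.245). Psmb4 followed at a mean of 368 CPM and its libraries overlapped those of Psmb1. Below them, Psmb3, Psmb5, Psmb7 and Psmb6 lay between 150 and 169 CPM on average and each overlapped its neighbour in the order. Psmb2 was lower, at 44.2 and 57.5 CPM in KO and 50.5 and 56.7 CPM in WT.

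Psmb11 encodes the catalytic subunit of the thymoproteasome, which is made in cortical thymic epithelium. It was the lowest of the tested members, with 20 and 16 counts in KO and 5 and 15 in WT, or 2.05 and 1.74 CPM in KO and 0.57 and 1.58 CPM in WT. The genotypes did not overlap, but the log2 fold change of 0.80 (SE 0.812) had an interval of -0.86 to 2.45 and did not pass (adjusted p = 0.744). It was 0.255 without WT replicate 1 and 1.71 without WT replicate 2. Its 3′ end matches transcripts of several other genes in the tables at 95% identity or more, among them Mrpl35, over at least 100 bases, so that its few reads are uncertain.

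**Figure D2:**
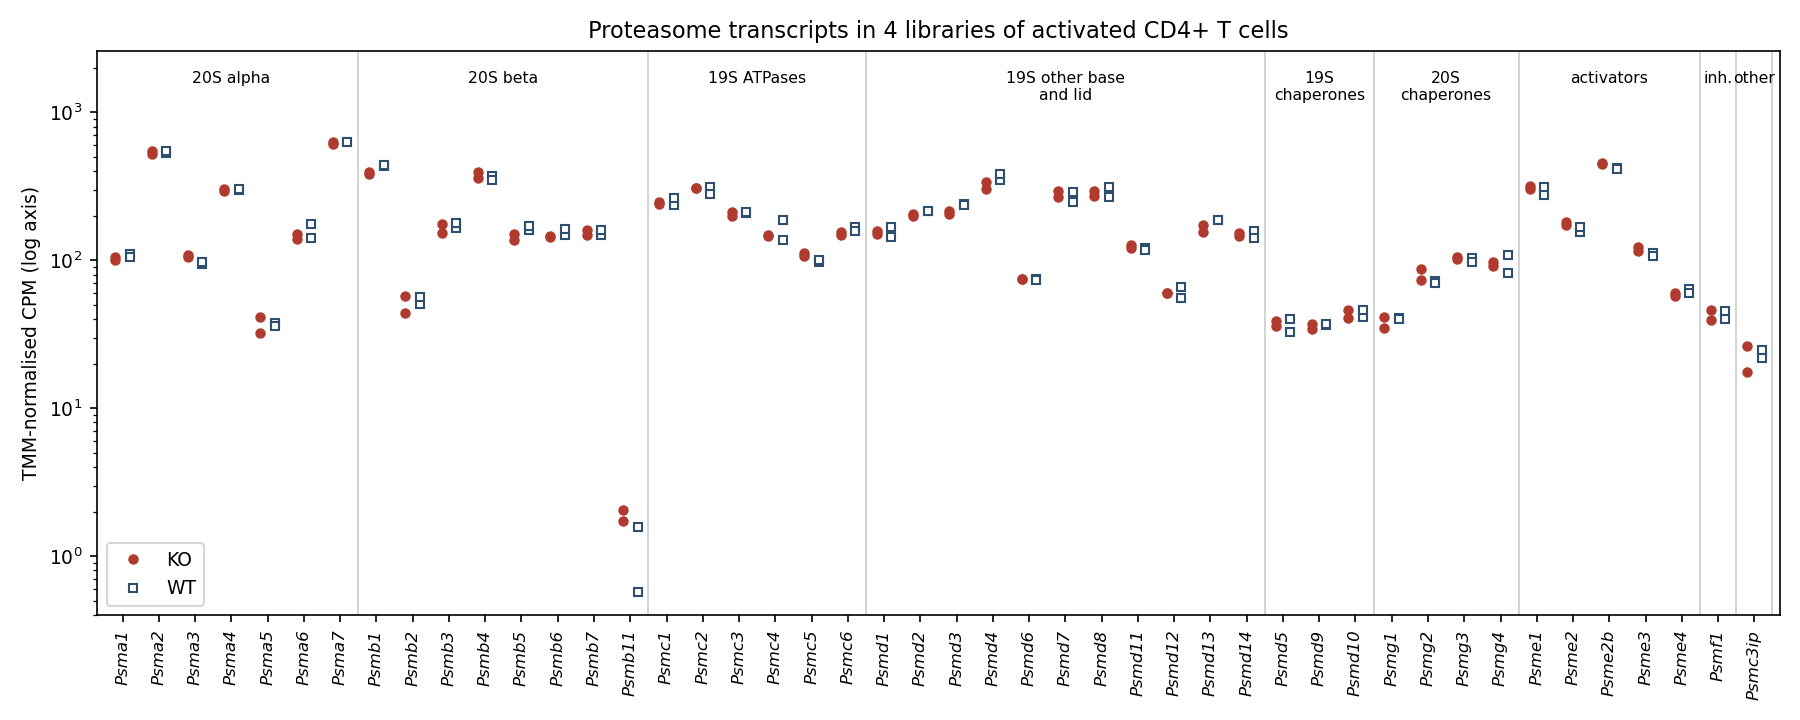
Level of each tested member in every library (TMM-normalised CPM, log axis), with KO libraries as filled circles and WT libraries as open squares, grouped by role. Members differ from 1.49 CPM (Psmb11) to 622 CPM (Psma7) on average, and the 4 libraries of Psmb11 span 0.57 to 2.05 CPM.

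In the regulatory particle, Psmc1 to Psmc6 encode the ATPases that unfold substrates and open the core. Of 6 tested, 0 rose and 0 fell, and the median log2 fold change was -0.04. Their levels were more even than those of the alpha ring, with a ratio of 2.89 between the highest and the lowest mean. Psmc2 was the highest, at 308 and 306 CPM in KO and 310 and 278 CPM in WT. Psmc5 was the lowest, at 107 and 112 CPM in KO and 97.6 and 99.7 CPM in WT. KO libraries of Psmc5 lay above WT without overlap, at 0.15 on the log2 scale (SE 0.106, adjusted p = 0.605), the highest of the regulatory particle.

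Psmc4 had the lowest fold change of the ring and the widest spread in WT. It was at 149 and 147 CPM in KO, against 136 and 186 CPM in WT, so that the genotypes overlapped. Its log2 fold change was -0.13 (SE 0.108, adjusted p = 0.681) with all libraries, -0.33 without WT replicate 1 and 0.11 without WT replicate 2. Psmc3 was at 211 and 200 CPM in KO and 208 and 211 CPM in WT. Its 3′ end overlaps exons of Slc39a13 on the opposite strand over 307 of 500 bases, and that gene was at 14.9 CPM on average in KO and 16.8 CPM in WT.

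The other base and lid subunits of the regulatory particle come from 11 genes, which include the scaffold subunits Psmd1 and Psmd2, the ubiquitin receptor Psmd4, the deubiquitinase Psmd14 and the remaining lid. Of these 0 rose and 0 fell, with a median log2 fold change of -0.02 and values between -0.20 and 0.06. The members with an unadjusted p under 0.05 besides Psmb1 were Psmd4, Psmd3 and Psmd13, which were singled out after their values were seen.

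Psmd4 (chromosome 3, 95032694 to 95042614, minus strand) had 301 and 335 CPM in KO, against 350 and 381 CPM in WT. Its log2 fold change of -0.20 (SE 0.0788, 95% interval -0.36 to -0.04) had the smallest p of all members and did not pass (adjusted p = 0.221). Psmd3, a lid subunit (chromosome 11, 98682554 to 98695979, plus strand), had 204 and 214 CPM in KO, against 239 and 235 CPM in WT (-0.18, SE 0.0839, adjusted p = 0.346). Each of the genes had both KO libraries below both WT libraries. Psmd13, another lid subunit (chromosome 7, 140881968 to 140898643, plus strand), had 154 and 173 CPM in KO, against 187 and 187 CPM in WT (-0.19, SE 0.0914, adjusted p = 0.341). Without KO replicate 1 the log2 fold change was -0.13 for Psmd4 and -0.11 for Psmd13. Those were the values closest to no change under the alternatives described at the end. The values farthest from it were -0.28 for Psmd4 and -0.28 for Psmd13.

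The other lid and base genes lay closer to 0. Psmd14, which removes ubiquitin chains from substrates, had 147 and 153 CPM in KO and 156.3 and 140.5 CPM in WT (log2 fold change 0.01, adjusted p = 0.979). Psmd7, its partner in the lid, had the highest fold change of the group, at 293 and 266 CPM in KO and 246 and 290 CPM in WT (0.06, adjusted p = 0.842). The genotypes overlapped in both. Psmd12, the least abundant, had 59.8 and 59.5 CPM in KO and 55.3 and 65.5 CPM in WT (-0.02, adjusted p = 0.977), and Psmd4 was 5.70 times as abundant on average.

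Over all members, 17 of 46 had genotypes that did not overlap, 9 with KO below WT and 8 with KO above WT. Over all tested genes 43.4% did not overlap, 21.9% with KO below WT and 21.5% with KO above WT, so that the members' counts are near the background. By particle, KO was below WT without overlap in 4 of 15 core and 5 of 17 regulatory genes, and above WT in 2 of 15 and 2 of 17.

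The summed level of each particle shifted by a few percent. Core transcripts summed to 3267 and 3262 CPM in KO, against 3319 and 3397 CPM in WT, a percent change of the mean of -2.8 in KO. Regulatory transcripts summed to 3147 and 3212 CPM in KO, against 3256 and 3335 CPM in WT (a percent change of -3.51). In the core the means differed most for Psmb1 (386 CPM in KO, 437 CPM in WT) and Psmb5 (144 and 164 CPM). In the regulatory particle they differed most for Psmd4 (318 and 366 CPM), Psmd3 (209 and 237 CPM) and Psmd13 (164 and 187 CPM). Log2 fold changes were positive in 4 of 15 core and 6 of 17 regulatory genes, against 5738 of all 11464 tested genes. The medians of the particles were -0.02 and -0.03. Both particles were lower in KO without overlap under TMM scaling. The sum over all genes itself changed by -1.51% in KO under that scaling, at 996200 and 990800 CPM in KO and 1005000 and 1012000 CPM in WT, and the sum over all 47 members by -1.53%. Scaled by DESeq2 size factors, the changes were -2.75% for the core and -3.45% for the regulatory particle. Scaled by upper quartile, they were -3.57% and -4.27%, and under both scalings the genotypes did not overlap. With libraries scaled to their totals only, the changes were -1.32% for the core and -2.04% for the regulatory particle. The core sums still did not overlap there (3282 and 3295 CPM in KO, 3306 and 3360 CPM in WT). The regulatory sums did (3163 and 3246 CPM in KO, 3243 and 3299 CPM in WT). The sum over all members then changed by -0.033%, with overlap. Core and regulatory sums were of like size, at 3264 ± 3.49 and 3180 ± 46.1 CPM in KO and 3358 ± 55.1 and 3296 ± 56.2 CPM in WT (SD, n = 2 each).

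**Figure D3:**
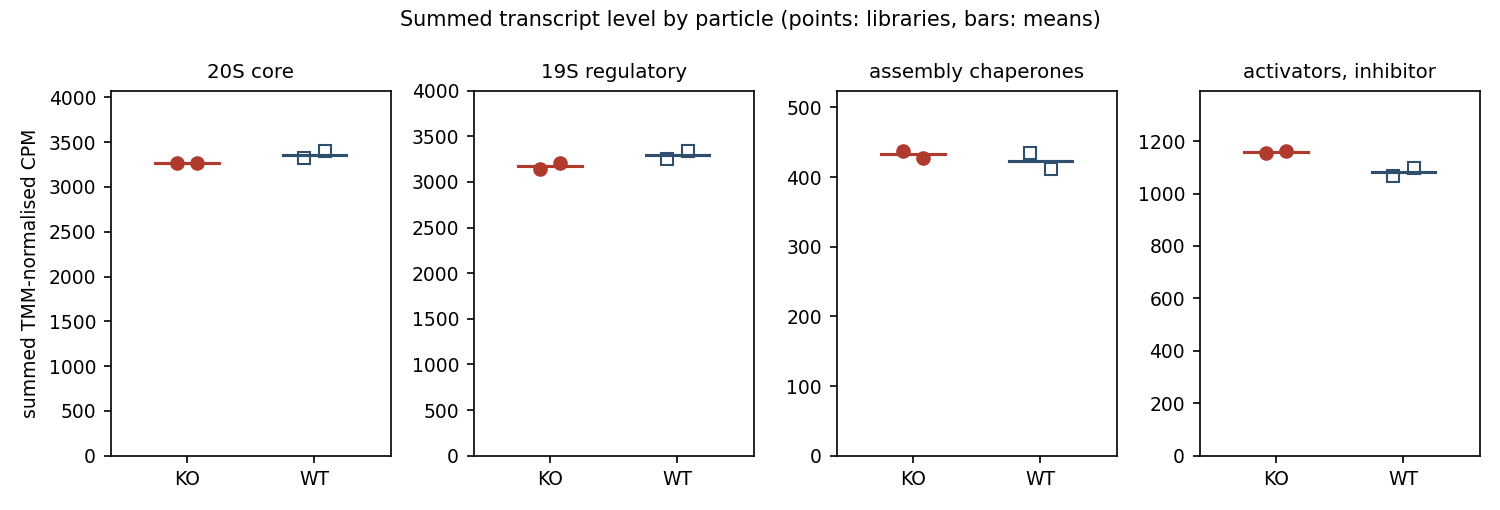
Summed TMM-normalised CPM of the core particle, the regulatory particle, the assembly chaperones and the activators with the inhibitor, with KO left of WT, points for libraries and bars for means. KO lies below WT by 2.8% and 3.51% for the particles and above WT by 7.02% for the activators and inhibitor, and the chaperones overlap. Under the same scaling the sum over all genes differs by -1.51%.

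Among the assembly chaperones, Psmg1 to Psmg4 encode chaperones that build the alpha ring, and Psmd5, Psmd9 and Psmd10 encode chaperones of the ATPase base. Of the 7 genes 0 rose and 0 fell, with a median log2 fold change of -0.01. Psmg2 had the highest fold change, at 86.5 and 73.9 CPM in KO and 72.2 and 69.7 CPM in WT (0.18, SE 0.122, adjusted p = 0.581). It was the only 1 of the 7 (14.3%) whose genotypes did not overlap, against 43.4% of all tested genes. Its log2 fold change was 0.06 without KO replicate 1 and 0.29 without KO replicate 2. Psmg1, which pairs with Psmg2, had the lowest, at 34.6 and 41.3 CPM in KO and 41.0 and 39.9 CPM in WT (-0.09, adjusted p = 0.876).

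Psmg3 was the most abundant chaperone, at 103 and 105 CPM in KO and 103 and 97.2 CPM in WT. The base chaperones were all lower, between 36.1 and 43.4 CPM on average, and overlapped between genotypes. Psmd9 was the lowest, at 34.1 and 36.8 CPM in KO and 36.5 and 37.2 CPM in WT (-0.06, adjusted p = 0.933).

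Among the activators, Psme1 and Psme2 encode the interferon-inducible activator of the core, Psme3 its nuclear counterpart and Psme4 an activator of nuclear proteasomes. Of these genes and Psme2b 0 of 5 rose and 0 fell. Their median log2 fold change was 0.12, and 4 of 5 had a positive value, against 5738 of all 11464 tested genes. Of these 4 activators, Psme2 and Psme2b are not independent, as described below. Psme2 had 173 and 181 CPM in KO, against 154.7 and 167.5 CPM in WT (0.13, SE 0.0913, adjusted p = 0.575). Psme2b (chromosome 11, 48945354 to 48946190) had 449.5 and 451.9 CPM in KO, against 417 and 411 CPM in WT (0.12, SE 0.0716, adjusted p = 0.481). KO lay above WT without overlap in both. Psme2b is 99.0% identical to Psme2 over at least 499 of the last 500 bases, so reads of either gene may have been given to the other, and the 2 values are uncertain and not independent. Their sum was 622 and 633 CPM in KO, against 572 and 579 CPM in WT.

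Psme1 was at 303 and 316 CPM in KO and 274 and 311 CPM in WT (0.08, adjusted p = 0.744), with overlap. Psme3 had 122 and 116 CPM in KO, against 111 and 106 CPM in WT (0.13, SE 0.103, adjusted p = 0.655), KO above WT. Psme4 was the lowest of the activators in level and fold change, at 59.9 and 57.1 CPM in KO and 64.0 and 59.8 CPM in WT (-0.08, adjusted p = 0.866). Psmf1, an inhibitor of the core in vitro, was at 45.8 and 39.5 CPM in KO and 45.4 and 39.9 CPM in WT (0.00, adjusted p = 0.996). The summed level of activators and inhibitor was 1153 and 1161 CPM in KO, against 1066 and 1096 CPM in WT, a change of 7.02%. It was 6.18% to 8.66% under the other scalings, without overlap in each. Most of this difference came from Psme2 and Psme2b, whose separate values are uncertain and not independent. An exchange of reads between them would not change the sum, while the treatment of multiply mapped reads, which could, is not given.

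Psmc3ip, which is no subunit, was at 17.5 and 26.4 CPM in KO and 24.6 and 21.7 CPM in WT (-0.07, adjusted p = 0.937). Its 3′ end overlaps exons of Mlx on the opposite strand over 385 of 500 bases, so its value is uncertain.

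The immunoproteasome genes, which replace the catalytic subunits, were also not called. Psmb8 was at 392 and 449.5 CPM in KO and 406 and 441 CPM in WT (-0.01, adjusted p = 0.981). Psmb9 was at 215.5 and 232.6 CPM in KO and 218 and 191 CPM in WT (0.13, adjusted p = 0.573), and Psmb10 at 104 and 113 CPM in KO and 107 and 121 CPM in WT (-0.07, adjusted p = 0.865).

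The wider pathway was read from a list of ubiquitin and proteasome genes outside the members, of which 37 were tested, the 3 immunoproteasome genes included. Of these 0 rose and 0 fell, with a median log2 fold change of 0.02. At an unadjusted p under 0.05 there were 5, or 13.5%, and the share over all tested genes was also 13.5%. Nfe2l1 was at 142 and 132 CPM in KO and 130 and 137 CPM in WT (0.03, SE 0.0973, adjusted p = 0.933), with overlap. Pomp, the chaperone that matures the core, had 498 and 509 CPM in KO, against 553 and 566 CPM in WT (-0.15, SE 0.0689, adjusted p = 0.314). KO was below WT in both libraries of Pomp.

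The others with an unadjusted p under 0.05 were Ddi2, Ubqln4, Ubqln2 and Vcp, named after their values were seen. Ddi2, the protease that cleaves NRF1 into its active form, had 20.9 and 19.5 CPM in KO, against 13.1 and 12.5 CPM in WT (0.66, SE 0.235, adjusted p = 0.155). The shuttle factor Ubqln4 had 25.4 and 40.7 CPM in KO, against 23.7 and 22.0 CPM in WT (0.53, adjusted p = 0.199). Its relative Ubqln2 had 6.34 and 8.27 CPM in KO, against 10.0 and 13.7 CPM in WT (-0.70, adjusted p = 0.303). Neither factor overlapped between genotypes, and their fold changes had opposite signs. Vcp, the unfoldase that delivers ubiquitinated proteins to the proteasome, had 294 and 309 CPM in KO, against 320 and 354 CPM in WT (-0.16, adjusted p = 0.368).

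**Figure D4:**
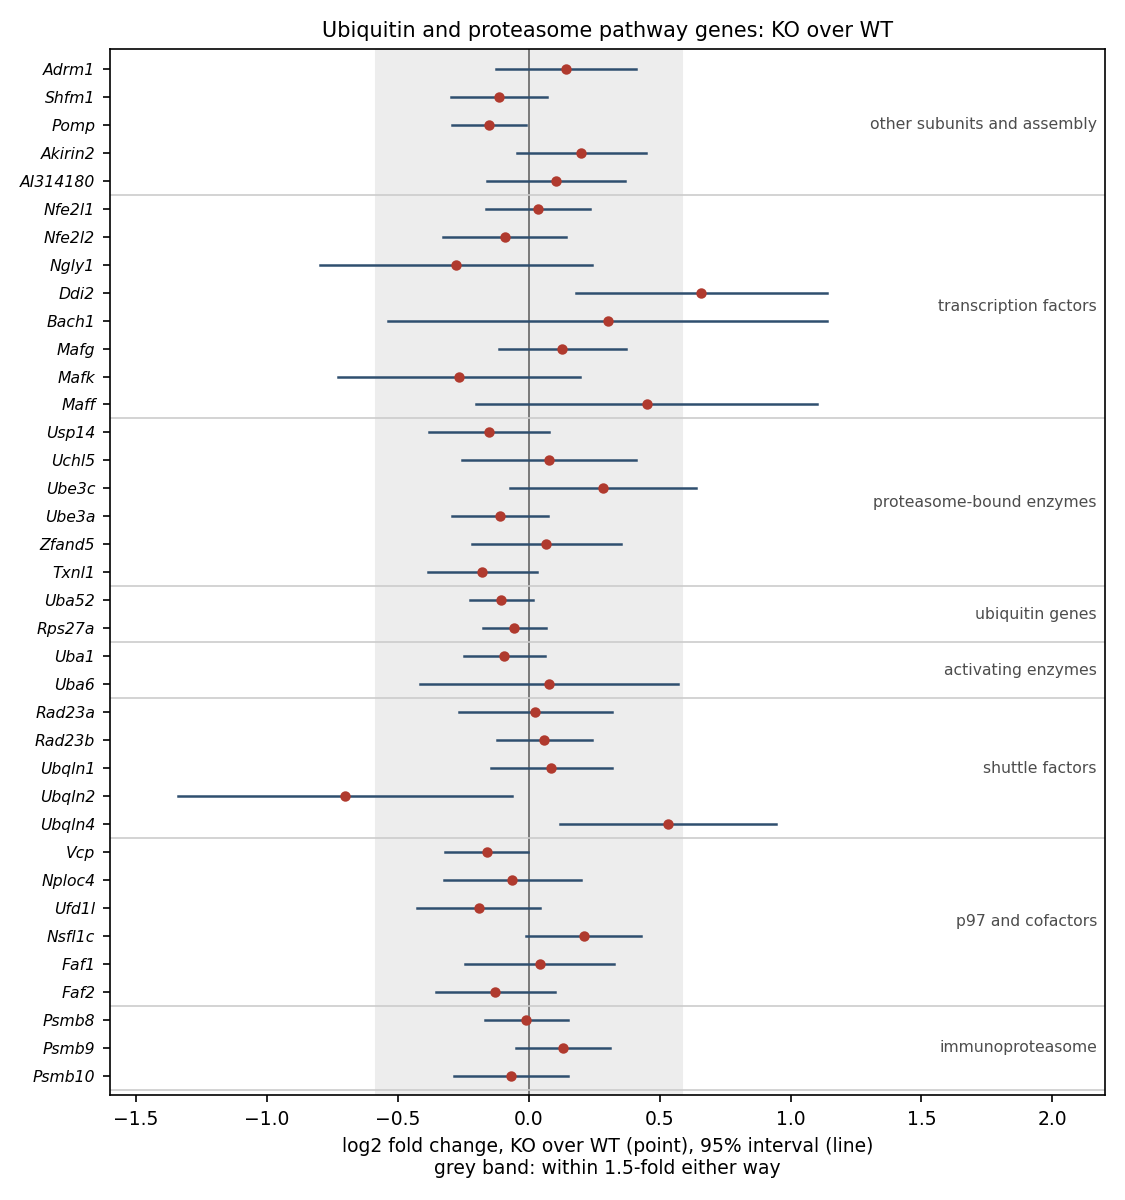
Log2 fold change, KO over WT, of the 37 tested genes of the ubiquitin and proteasome pathway outside the members, by role, with 95% intervals as lines and the range within 1.5-fold shaded. The points lie between -0.70 (Ubqln2) and 0.66 (Ddi2), and 29 of the 37 intervals lie inside the shaded range.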

How the data were processed

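RNA of 2 KO and 2 WT libraries, each from 500 ng of total RNA, was sequenced from the 3′ end with the Lexogen QuantSeq kit, per the labels' protocols. The authors deposited raw counts per gene symbol, 1 table per library. Bowtie2, edgeR and the mm10 build appear in the submitters' processing notes without role or version. The counting tool, the annotation, strand use and the treatment of multiply mapped reads are not given there, so genes with near-identical or overlapping 3′ ends are named as uncertain.

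Repeated symbols (35, none a member) were summed. KO was tested against WT with edgeR 4.0.16 under R 4.3.3 (two-sided quasi-likelihood F test, TMM, filterByExpr, genotype as the only term, Benjamini-Hochberg adjustment over 11464 genes). "Rose" and "fell" mean an adjusted p under 0.05. The standard error is the size of the log2 fold change over the root of the F statistic. TMM-normalised CPM are given as levels. Alternatives included limma-voom (limma 3.58.1) and DESeq2 1.42.0.

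Members, lists and the rule for named genes were chosen with earlier results of these data known. The rule takes members past the test, the extremes of fold change and level in each role group, catalytic subunits and uncertain genes. Positions come from GENCODE vM21 (GRCm38, as mm10), matched by symbol. Transcript ends of 500 bases were compared with BLAST 2.17.0 at 95% identity over 100 bases. Annotated pseudogenes, not analysed here, that matched Psma4, Psma5, Psmb3, Psmb5, Psmc1 and Psmd2 may also draw reads. So may Gm21972, whose transcript, annotated for nonsense-mediated decay, matched the end of Psmd1 at 100% over 305 bases. The end of Psme1 overlaps exons of Emc9 on the opposite strand over 14 of 500 bases. Of 43 pathway symbols listed, 39 were in the tables. A further gene of the pathway was left out of the list and is not reported here.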

Additional observations from a re-analysis of the deposited data

How the results depend on the processing

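The count of called members was 0 for the core particle, the regulatory particle and all members under each of 13 alternatives (other scalings by DESeq2 size factors, upper quartile or library size, no filter, a stricter filter, DESeq2, limma-voom, Rn45s left out, a replicate block, and each library left out). The smallest adjusted p was 0.106, for Psmc4 without WT replicate 1. Psmb11 was not tested under the stricter filter. The median log2 fold change ranged from -0.05 to 0.00 for the core and from -0.06 to -0.01 for the regulatory particle. These medians moved from their main values by less than the SD between replicates of the particle's median log2 level. That SD was 0.099 for the core and 0.0824 for the regulatory particle, and it is a spread of levels, not of fold changes. The log2 fold change kept its sign throughout in 20 of 46 members and changed it, uncalled, under at least 1 alternative in 26. Over all genes, 305 were called, and 170 to 293 with 1 library left out (170 without KO replicate 1, 184 without WT replicate 2). Libraries of the same replicate number shared no deviation from the genotype means (correlation 0.003 across 11464 genes). Whether they were paired by design is not given and cannot be read from this value. The replicate block gave 260 calls over all genes and changed no call of a member. Counts were used as deposited, with no step here to collapse them by molecule, so floors cover counting error only.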
